A study of Mus musculus with 12 samples.

Results

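Steady-state RNA was compared between mouse embryonic stem cells (ESCs) lacking Dgcr8 (Dgcr8 KO) and wild-type ESCs. The series holds 12 libraries, of which 6 were made from total RNA depleted of ribosomal RNA, 3 from Dgcr8 KO and 3 from wild-type cells, and these 6 are described here. The other 6, made from RNA newly labelled with 4-thiouridine (4sU), were not used. Of 51467 gene rows, the 11854 that reached 3 CPM, the read count relative to the size of its library, in 3 or more of the 6 total libraries were tested, and they are described by 47 pathway, marker and signalling lists and 21 gene families.

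Wild-type cells were the V6.5 ESC line and Dgcr8 KO cells were an ESC line generated earlier by the same laboratory, with a single line of each. Genotype and line history therefore cannot be told apart. Both were grown with LIF and the 2 kinase inhibitors of 2i medium, and both were given 4sU at 500 uM for 30 min, so the pulse is common to the 2 groups. The labels number the replicates of each genotype from 1 to 3 without saying that they were separate cultures, so the p-values measure the spread between these libraries, which may be technical. One label field of the Dgcr8 KO libraries names another gene, whereas their titles and genotype entries name DGCR8, and the titles were used.

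DGCR8 binds the hairpins of primary microRNA transcripts and, with the nuclease DROSHA, cuts them in the nucleus, so that the precursor can be exported and trimmed by DICER. MicroRNAs pair through their seed, bases 2 to 8, with sites in 3′ untranslated regions (UTRs) and lower the stability and translation of the message. In ESCs the most abundant microRNAs come from the miR-290 cluster, and many of them share a seed beginning AAGUGC with the miR-302 cluster. Together these are known as the ESC-specific cell cycle (ESCC) microRNAs, after their inhibition of genes that slow the step from G1 to S phase.

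The mature sequences of 6 of these microRNAs are shown because their seeds define the sites searched for below. They are from RefSeq on GRCm38.p6, and capitals mark the seed.
mmu-miR-290a-3p: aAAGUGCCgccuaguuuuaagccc
mmu-miR-291a-3p: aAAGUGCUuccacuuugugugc
mmu-miR-294-3p: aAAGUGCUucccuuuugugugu
mmu-miR-295-3p: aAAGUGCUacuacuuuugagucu
mmu-miR-302d-3p: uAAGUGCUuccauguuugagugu
mmu-miR-293-3p: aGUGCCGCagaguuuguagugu
The miR-290 cluster members lie on chromosome 7, with miR-290a-3p at chr7:3218674-3218697 and miR-295-3p at chr7:3220815-3220837, both on the plus strand. Of those shown, miR-291a, miR-294, miR-295 and miR-302d have an identical seed, the seed of miR-290a also begins AAGUGC, and that of miR-293 does not.

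For 4 genes of the ESCC target list with the largest rises, the stretch of the 3′ UTR around a seed match is shown, since these are the letters the seed would pair with. Coordinates are on mm10, 3′ UTRs are those of GENCODE M21 on the same assembly, sequences are written 5′ to 3′ on the strand of the gene, and capitals mark GCACTT, the complement of AAGUGC.
Irf2, chr8:46846647-46846676, plus strand, exon 9 of 9: tctgcaccttatcttgaaGCACTTacaata
Lefty1, chr1:180938196-180938225, plus strand, exon 4 of 4: cactgcactgtatgcgaaGCACTTacatgt
Rbl2, chr8:91123813-91123842, plus strand, exon 22 of 22: tgtgtatttttcaataaaGCACTTataaat
Lats2, chr14:57691081-57691110, minus strand, exon 8 of 8: tagtacagtatggaaagaGCACTTattttg
In each of the 4 the hexamer is preceded by A, which lengthens the match to the AAGUGCU seed, and is followed by A. Rbl2 holds 3 matches in its 3′ UTR and Lats2 holds 2, and Irf2 and Lefty1 hold 1 each. For Rbl2 the last match is shown, and its other matches have A on neither side. The match of Lats2 that is not shown is preceded by A but not followed by it.

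Total counts per library ranged from 6873708 to 9295245. Within a genotype, Spearman correlations across genes lay between 0.9956 and 0.9964, and each pair of libraries differed beyond sampling noise (chi-square over its degrees of freedom at least 1.59). Genotypes were separated along the first principal component, with 91.8% of the variance. No library stood apart from its group.

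Dgcr8 itself (ENSMUSG00000022718.11, chromosome 16, minus strand) was examined first. Its level was 94, 102 and 84.8 CPM in the 3 wild-type libraries and 32.9, 33.3 and 31.4 CPM in the 3 Dgcr8 KO libraries, where CPM is scaled to the library size after correction by the trimmed mean of M values (TMM). All Dgcr8 KO libraries lay below all wild-type libraries, with a log2 change of -1.51 with SE 0.0771 (limma adjusted p = 1.11e-18). Counts cover all exons of the gene, so reads from a message that lacks the deleted part were counted too.

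Across all genes, 1916 of 11854 were called by limma, which here means an adjusted p under 0.05 together with a log2 change beyond 1 in either direction. This is 16.2% of the genes tested. Of these, 1187 (10%) were higher and 729 (6.15%) lower in Dgcr8 KO, and 1905 of them were also called by the quasi-likelihood test of edgeR, which called 1915 (16.2%). With no limit on size, 8646 genes (72.9%) had an adjusted p under 0.05, 4311 (36.4%) higher and 4335 (36.6%) lower. Most differences were thus below 2-fold, while 352 genes rose and 176 fell by more than 2 on the log2 scale. The median change of all genes was -0.01, and the lists below are read beside that median and these percentages. Leaving out a library moved the number of members called, in 1 direction, by more than 1.5 times in 21 of 136 such counts over the lists, none of them above 3 members to begin with, and such counts are of little weight. In 1915 of the 1916 called genes the libraries of the 2 genotypes did not overlap, which held for 74.2% of all genes (36.8% higher and 37.4% lower).

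**Figure D1:**
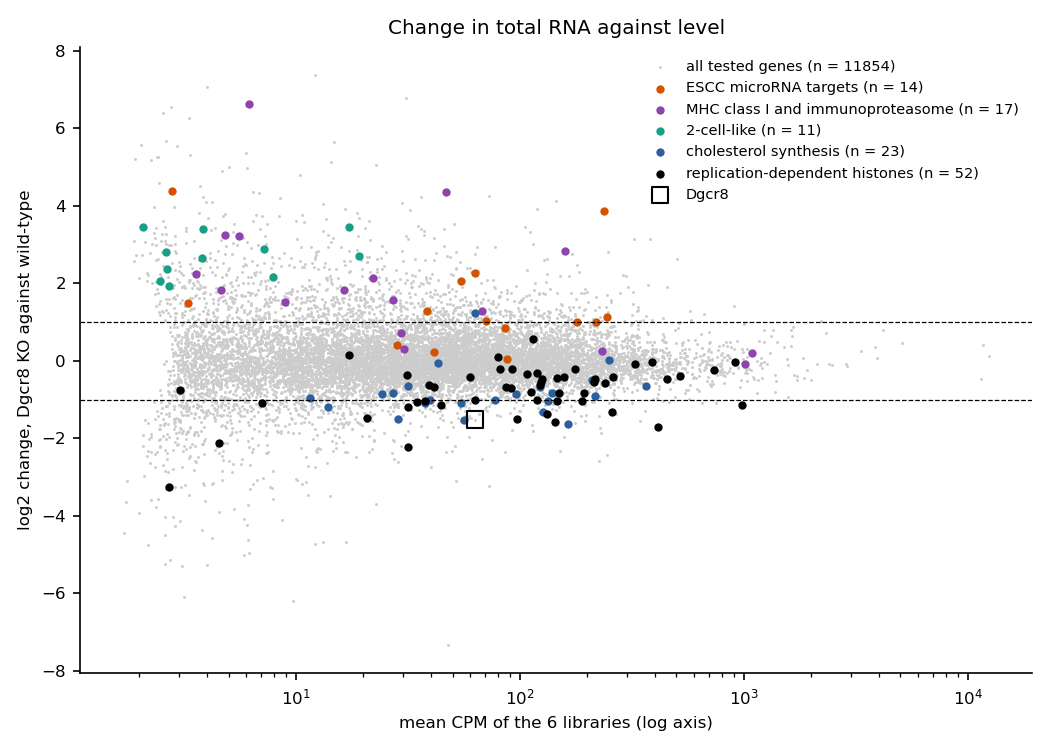
Each point is a tested gene, with the mean CPM of the 6 total RNA libraries on a log axis and the log2 change in Dgcr8 KO against wild-type on the vertical axis; dashed lines mark a log2 change of 1 in either direction. ESCC targets, MHC class I and immunoproteasome genes and 2-cell-like genes lie mostly above 0, cholesterol synthesis and histone genes mostly below, and Dgcr8 is at -1.51.

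Genes generally named as targets of the ESCC microRNAs were higher in Dgcr8 KO. Of 14 measured members of the list, 8 were called higher and 0 lower, with a median log2 change of 1.08. Lefty1, a secreted inhibitor of Nodal, was at 29.2, 30.9 and 31.3 CPM in wild-type and 459, 418 and 456 CPM in Dgcr8 KO. Rbl2, which encodes the Rb-related protein p130 that holds back E2F genes, was at 24.5, 20.1 and 21.2 CPM in wild-type and 102, 101 and 108 CPM in Dgcr8 KO. Lats2, a kinase of the Hippo pathway, was at 20.7, 21.3 and 21.2 CPM in wild-type and 89.2, 95.6 and 78.7 CPM in Dgcr8 KO. In all 3 the Dgcr8 KO libraries were several fold above every wild-type library, with log2 changes of 3.86 (SE 0.0690, limma adjusted p = 9.68e-32), 2.26 (SE 0.0810, limma adjusted p = 4.34e-23) and 2.05 (SE 0.0876, limma adjusted p = 6.52e-21). Irf2, a transcription factor of the interferon response, had 4, 1 and 1 reads in the wild-type libraries, or 0.580, 0.112 and 0.107 CPM. It stood at 5.75, 5.19 and 4.96 CPM in Dgcr8 KO, a log2 change of 4.37 with SE 0.390 (limma adjusted p = 3.58e-12), and its size is the least certain of the 4 because of the few reads.

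Among the other members called higher were Tgfbr2, the type II receptor of TGF-beta, at 1.48, Mbd2, a reader of methylated DNA, at 1.28, and Ei24, a gene induced by p53, at 1.13. Cdkn1a, which encodes the cyclin-dependent kinase inhibitor p21, had a log2 change of 0.85, and Lefty2, another Nodal inhibitor, was at 1.0, both just under the limit of 1, although their limma adjusted p values were 4.46e-13 and 8.05e-20. Lefty2 passed the limit without wild-type replicate 3 or Dgcr8 KO replicate 1, at 1.01 and 1.05. Casp2 was called at 1.03 but fell to 0.996 without Dgcr8 KO replicate 3. The list was put together from general knowledge and not from a database, and with earlier results of these data known. Its counts and median are therefore a description and not an independent test.

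The letters of the ESCC seed match were then looked up in every 3′ UTR. GCACTT on the sense strand was present in 34.2% of 11113 tested protein-coding genes with a 3′ UTR, where the longest 3′ UTR of each gene was read. It was present in 44.8% of 1114 genes called higher, in 33.6% of 9315 not called and in 24.4% of 684 called lower. All 14 members of the ESCC list hold it, although a list of genes named as ESCC targets is not independent of the seed. Genes called higher also had longer 3′ UTRs, with a median of 1424.5 bases against 1201 for genes not called and 943 for genes called lower. With genes divided into 4 equal classes of 3′ UTR length, the share in each class was again highest among genes called higher and lowest among those called lower. It was 51.9%, 38.8% and 30.7% for genes called higher, not called and called lower in the class with the second longest 3′ UTRs, and 8.86%, 7.75% and 5.86% in the shortest. Across all genes, the median log2 change was 0.14 with the hexamer and -0.09 without it. A match of 6 letters is a description of the sequence and does not mark a site in use, and 499 of the 1114 genes called higher hold it.

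**Figure D2:**
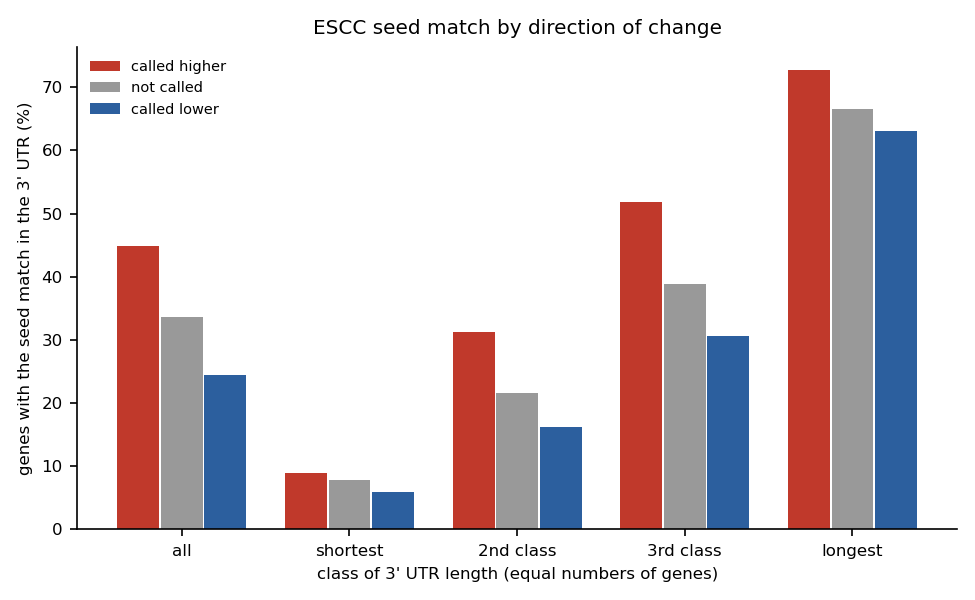
Bars give the percentage of tested protein-coding genes whose longest 3′ UTR holds GCACTT, for genes called higher, not called and called lower in Dgcr8 KO, over all genes and within each of 4 classes of 3′ UTR length. In every class the bar of genes called higher is the tallest, with 44.8% over all genes against 24.4% for genes called lower.

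The transcripts that carry microRNAs were themselves higher in Dgcr8 KO. Of 17 measured rows named as microRNA genes or hosts, 11 were called higher and 0 lower, with a median log2 change of 1.77. These rows count reads over the hairpin or the host transcript, not the mature microRNA. The miR-290 cluster made up 7 of the 11 and its members lie on the same primary transcript, so they are not independent. Mir295 was at 3.05, 3.24 and 3.20 CPM in wild-type and 38.7, 36.9 and 42.5 CPM in Dgcr8 KO, a log2 change of 3.60 with SE 0.178 (limma adjusted p = 4.20e-19). Mir291a was at 4.64, 3.24 and 2.77 CPM in wild-type and 37.6, 36.7 and 36.5 CPM in Dgcr8 KO, and Mir294 rose by 3.13. All 3 rows were several fold above every wild-type library in Dgcr8 KO.

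Other hosts rose too. Mir17hg, the host of the miR-17 to miR-92 cluster, was at 57.9, 64.4 and 53.3 CPM in wild-type and 214, 188 and 186 CPM in Dgcr8 KO, a log2 change of 1.75 with SE 0.0653 (limma adjusted p = 1.45e-22). Mirg, the maternally expressed host of a large microRNA cluster at the Dlk1-Dio3 locus, was at 26.3, 29 and 25.4 CPM in wild-type and 117, 116 and 114 CPM in Dgcr8 KO, a log2 change of 2.10 with SE 0.0729 (limma adjusted p = 1.81e-23). Mir24-1 had 2 reads in wild-type and 92 in Dgcr8 KO, a ratio of 48.4-fold (95% counting interval 13 to 405). In all of these the Dgcr8 KO libraries lay above the wild-type libraries. Of 19 measured genes of microRNA processing and silencing, 2 were called, Ago1 at 1.32 and Tnrc6b at 1.31, which encode an Argonaute protein and one of its GW182 partners. Both were higher.

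**Figure D3:**
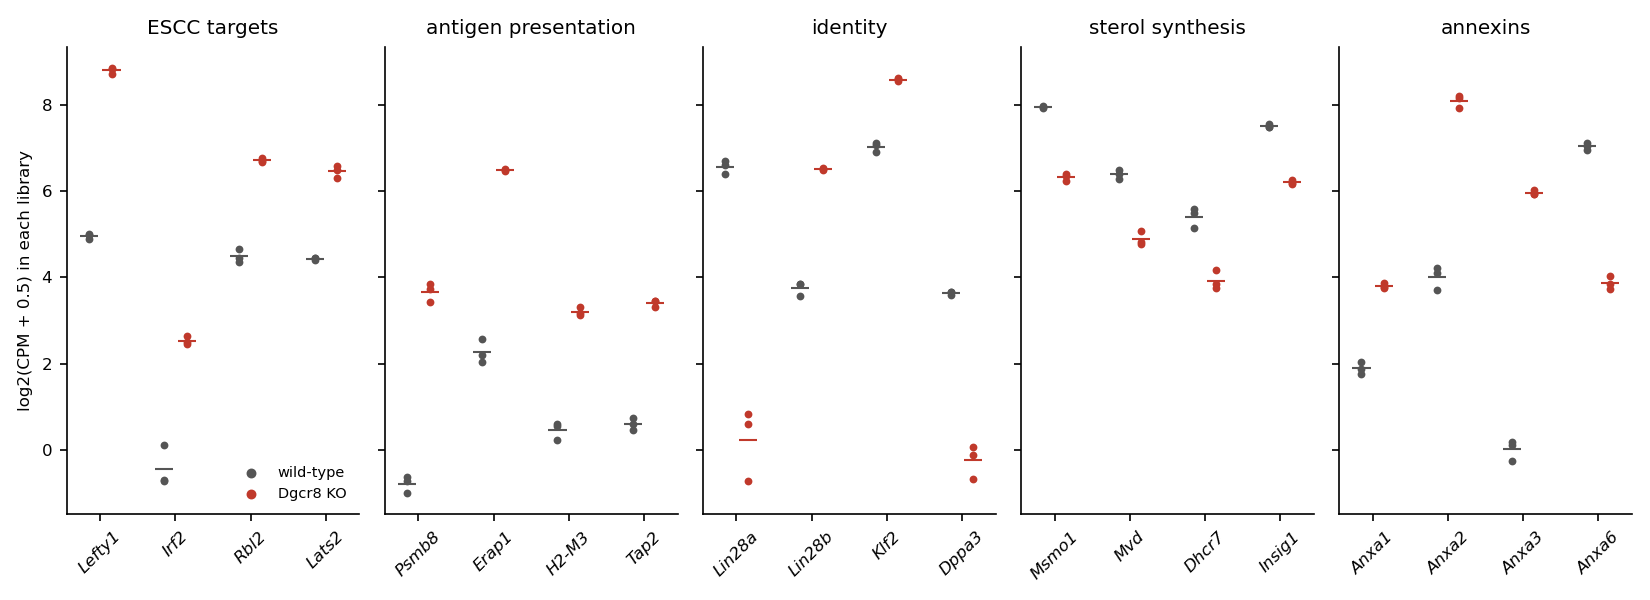
Each point is 1 total RNA library, wild-type in grey and Dgcr8 KO in red, and lines are the mean of log2(CPM + 0.5) for 3 libraries per genotype. The 2 genotypes do not overlap for any of the 20 genes shown. Lin28a, Dppa3, Anxa6 and all sterol synthesis genes shown are lower in Dgcr8 KO, and the other genes are higher.

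The core of the pluripotency programme was close to its wild-type level, with single members far from it. Of 15 measured general pluripotency genes, none was called higher and 1 lower (1 higher without wild-type replicate 3 or Dgcr8 KO replicate 2), with a median log2 change of 0.12. Their summed level was 4918 to 5115 CPM in wild-type and 5051 to 5218 CPM in Dgcr8 KO. Pou5f1, which encodes OCT4, was at 783, 768 and 759 CPM in wild-type and 956, 979.9 and 1004 CPM in Dgcr8 KO, a log2 change of 0.35 with SE 0.0307 (limma adjusted p = 2.85e-12), and so slightly higher in every Dgcr8 KO library. Nanog had a log2 change of -0.09 (limma adjusted p = 0.00995) and Sox2 of 0.41 (limma adjusted p = 4.96e-13).

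The exception was Lin28a, an RNA-binding protein that blocks maturation of let-7 microRNAs. It was at 96.9, 84.2 and 103 CPM in wild-type and 0.111, 1.01 and 1.27 CPM in Dgcr8 KO, the largest fall among abundant protein-coding genes, with a log2 change of -7.33 with SE 0.429 (limma adjusted p = 5.03e-17). Its paralogue Lin28b moved the other way, from 13.8, 13.8 and 11.3 CPM in wild-type to 88.7, 92 and 91.1 CPM in Dgcr8 KO, a log2 change of 2.81 with SE 0.0976 (limma adjusted p = 1.81e-23). For both genes the libraries of the genotypes were far apart. Of 19 measured genes named as let-7 targets, 4 were called higher and 2 lower, with a median of 0.35. Besides the Lin28 pair, the cyclins Ccnd2 and Ccnd1 and the proto-oncogene Mycn rose, at 4.89, 1.64 and 1.19. Igf2bp3 fell at -1.05, and without Dgcr8 KO replicate 2 Lin28a was the only member called lower. At an adjusted p under 0.05 and any size, 11 of the 19 were higher and 8 lower. Hmga2, a chromatin protein often named as a let-7 target, was at 0.35 (limma adjusted p = 4.18e-04).

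Genes of the naive state moved in both directions. Of 17 measured, Klf2 was called higher, and Dppa3 and Tcl1 lower, with a median of -0.06. Klf2, a transcription factor of the naive network, was at 134, 119 and 138 CPM in wild-type and 389.6, 385 and 373 CPM in Dgcr8 KO, a log2 change of 1.56 with SE 0.0475 (limma adjusted p = 3.97e-25). Dppa3, a maternal factor that protects DNA methylation, was at 12.2, 11.6 and 12 CPM in wild-type and 0.553, 0.127 and 0.425 CPM in Dgcr8 KO, a log2 change of -4.96 with SE 0.357 (limma adjusted p = 1.44e-14). Tcl1, a coactivator of AKT, had a log2 change of -1.96 with SE 0.0794 (limma adjusted p = 1.52e-21). Esrrb, Tfcp2l1 and Zfp42, widely used markers of the naive state, were within 0.25 of no change, at -0.08, -0.06 and 0.24. Gbx2 and Nr5a2 were lower, at -0.94 and -0.70, and were not called. At an adjusted p under 0.05 and any size, 5 of the 17 naive genes were higher and 8 lower. Of 12 measured genes of the formative and primed epiblast, Lin28b was called higher and Tcf15, Pou3f1 and Sox4 lower. With 3 CPM required in all 6 libraries, 1 was called higher and 0 lower. The 3 falls thus passed the filter through the wild-type libraries and could hardly come out otherwise than lower. Pou3f1, a POU factor of the epiblast, was at 4.21, 5.36 and 5.97 CPM in wild-type and 0.663, 1.52 and 0.991 CPM in Dgcr8 KO, while Otx2, another factor of that state, was at 0.87 (limma adjusted p = 7.29e-09). Sox4 lost its call, at -0.99 and -0.97, without wild-type replicate 3 or without Dgcr8 KO replicate 1.

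All 11 measured genes of the 2-cell-like list were called higher in Dgcr8 KO, with a median log2 change of 2.72. This list holds genes switched on in the early embryo and in a small share of cultured ESCs. Their summed level was 16.8 to 19.2 CPM in wild-type and 122 to 129 CPM in Dgcr8 KO. Zscan4d, of a cluster of zinc finger genes that act on telomeres, was at 2.61, 4.02 and 2.13 CPM in wild-type and 31.3, 33.1 and 30.7 CPM in Dgcr8 KO, a log2 change of 3.46 with SE 0.195 (limma adjusted p = 1.80e-17). Zscan4c and Zscan4f were at 2.90 and 3.41. The Zscan4, Tcstv and Usp17l members are near-identical copies and only uniquely mapped reads were counted, so the split of reads between copies is uncertain. With at least 3 CPM required in all 6 libraries, 1 of these genes was called. Most of the 11 thus passed the filter only through the Dgcr8 KO libraries and could hardly come out otherwise than higher. The count of 11 and the median of 2.72 therefore rest largely on the filter. In bulk RNA, more cells in that state and more RNA per cell cannot be told apart.

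Markers of other lineages did not move as blocks. Of 8 measured primitive endoderm markers, the 3 called were lower, and all were basement membrane genes, Col4a1, Lama1 and Lamb1, at -1.42, -1.37 and -1.23. The endoderm factor Gata4 was at 0.46 (limma adjusted p = 0.0346), and Gata6, Sox17 and Pdgfra did not pass the filter. Of 8 measured trophectoderm markers, Lgals3, a galectin, and Krt8, a simple keratin, were called higher, at 3.16 and 2.57, whereas the factors Tfap2c, Gata3 and Eomes were at -0.58, -0.50 and -0.27. Among 9 neural markers, the neurofilament gene Nefl rose from 65, 64 and 59.1 CPM in wild-type to 299, 305 and 312 CPM in Dgcr8 KO. The adhesion molecule Ncam1 rose from 49.8, 46.1 and 42.8 CPM to 193, 181 and 185 CPM. Tubb3, the neuronal beta-tubulin, fell from 40.9, 48 and 42.2 CPM to 9.83, 12 and 10.2 CPM. These 3 had log2 changes of 2.29 (SE 0.0529, limma adjusted p = 1.46e-28), 2.02 (SE 0.0613, limma adjusted p = 3.82e-25) and -2.04 (SE 0.117, limma adjusted p = 2.77e-17). The summed neural level was 406 to 412 CPM in wild-type and 848 to 867 CPM in Dgcr8 KO, and Nefl and Ncam1 made up much of that rise. Of the 9 neural markers, 3 were called higher and 2 lower. At an adjusted p under 0.05 and any size, 5 were higher and 4 lower, the lower ones including Pou3f2 at -1.22 and Nes at -0.64. Of 5 mesoderm markers, Kdr, a receptor of VEGF, was called higher, and Isl1 lower, which lost its call at -0.98 without Dgcr8 KO replicate 1.

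Germ cell genes were mostly lower. Of 16 measured, 8 were called lower and 3 higher, with a median of -0.96. With 3 CPM required in all 6 libraries, 5 were called lower and 2 higher, so part of the count rests on the filter. Tex19.1, which restrains retrotransposons, was at 123, 125 and 116 CPM in wild-type and 29.3, 31.5 and 27.5 CPM in Dgcr8 KO, a log2 change of -2.04 with SE 0.0725 (limma adjusted p = 3.57e-23). Fkbp6 and Stk31, genes of the germline piRNA machinery, were at -2.27 and -1.97, and Dazl, a germ cell RNA-binding protein, at -1.14. Among those called higher was Piwil2, of the piRNA pathway, at 1.19, and it was the only one still called with upper-quartile scaling. Fibroblast markers were measured because ESCs can be grown on feeder cells. Of 19 listed, 6 passed the filter, with Mmp2 called higher and Ddr2 and Fbln2 lower, and their sum was 152 to 153 CPM in wild-type and 182 to 200.3 CPM in Dgcr8 KO. The part of feeder cells in the results was not tested.

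**Figure D4:**
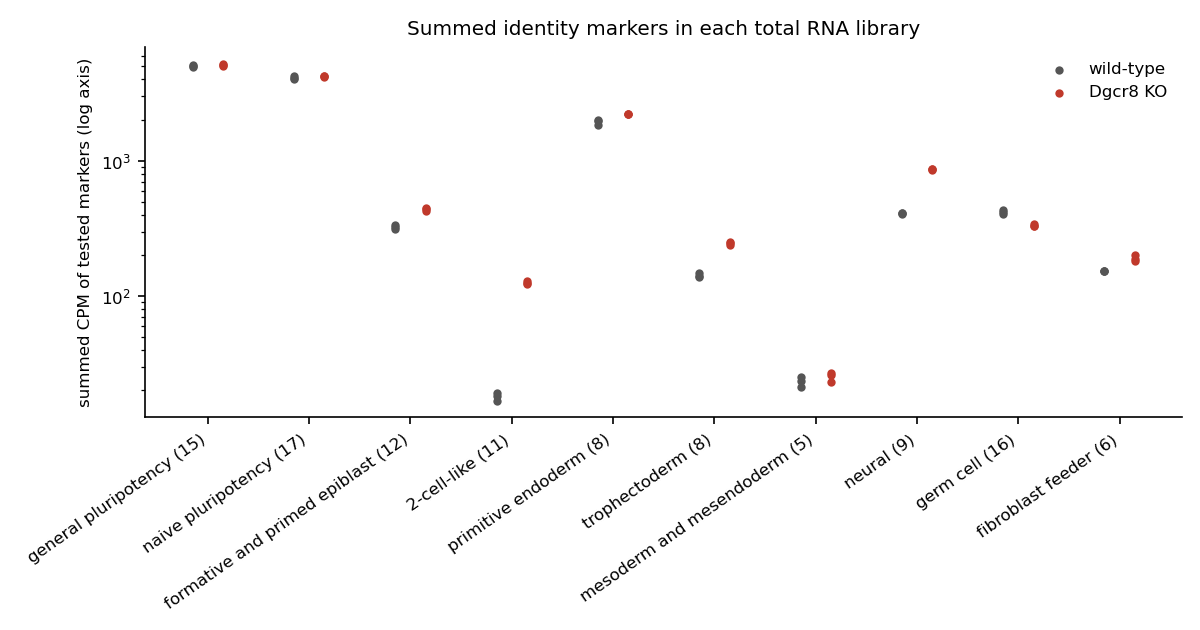
Points give the summed CPM, on a log axis, of the tested markers of each identity list (number in brackets) in each of the 3 wild-type (grey) and 3 Dgcr8 KO (red) libraries. The 2-cell-like sum goes from 16.8 to 19.2 CPM in wild-type to 122 to 129 CPM in Dgcr8 KO, while the general and naive pluripotency sums of the 2 genotypes lie close together.

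Antigen presentation by MHC class I was among the programmes with the clearest rise. Of 17 measured members of the MHC class I and immunoproteasome list, 12 were called higher and 0 lower, with a median of 1.84. Requiring 3 CPM in all 6 libraries left 7 called higher. Psmb8, a catalytic subunit that replaces its standard counterpart in the immunoproteasome, had 2 reads in the wild-type libraries together and 298 in Dgcr8 KO, a ratio of 157-fold (95% counting interval 43 to 1299.6). Erap1, which trims peptides in the endoplasmic reticulum, was at 4.06, 5.47 and 3.62 CPM in wild-type and 89.8, 88.2 and 89.9 CPM in Dgcr8 KO, a log2 change of 4.35 with SE 0.155 (limma adjusted p = 3.57e-23). Tap2, a chain of the peptide transporter, was at 0.870, 1.00 and 1.17 CPM in wild-type and 10.4, 9.50 and 10.5 CPM in Dgcr8 KO, and its partner Tap1 rose by 1.51. The loading factor Tapbp was at 2.83, B2m, the light chain of the complex, at 1.58, and the class Ib chain H2-M3 at 3.24.

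The immunoproteasome subunit Psmb10 and the activator subunits Psme1 and Psme2 were at 2.15, 1.29 and 1.84, and these 3 with Psmb8 were the only called genes of 46 measured proteasome genes. Without regard to size, 36 of the 46 were lower at an adjusted p under 0.05 and 5 higher, with a median of -0.31. The classical heavy chains H2-K1 and H2-D1 were at 0.30 and 0.72 and were not called, and the general chaperones Canx, Calr and Pdia3 were between -0.09 and 0.26. MHC class I genes are close copies of each other, so reads of H2-Q4 and H2-T22, at 2.23 and 1.84, may be split between copies.

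RNA sensing and interferon genes rose alongside. Of 25 measured, 11 were called higher and 0 lower, with a median of 0.77. Ddx58, which encodes the RNA sensor RIG-I, was at 14.1, 10.3 and 11 CPM in wild-type and 49.8, 53.6 and 59.9 CPM in Dgcr8 KO, a log2 change of 2.23 with SE 0.114 (limma adjusted p = 1.31e-18). Irf9, part of the transcription complex downstream of interferon receptors, was at 2.02, and Ifngr2, a chain of the interferon-gamma receptor, at 2.04. Gbp2, an interferon-induced GTPase, had no read in any wild-type library and 133 in Dgcr8 KO, and was at least 15.2-fold higher against a floor of 3 reads per wild-type library. Samd9l, an antiviral gene outside the list, was at 4.79, 3.35 and 4.26 CPM in wild-type and 63.8, 60.5 and 57.9 CPM in Dgcr8 KO, a log2 change of 3.89 with SE 0.161 (limma adjusted p = 2.49e-21). Of 16 measured NF-kB genes, Tnfaip3, an inhibitor of the pathway, was the only gene called, at 1.10, and it lost the call at 0.98 without wild-type replicate 1.

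Signalling lists held a few strongly changed members each, with medians from -0.17 (FGF and ERK) to 0.30 (Nodal and TGF-beta). At an adjusted p under 0.05 and any size, 14 of 20 Nodal and TGF-beta genes were higher and 2 lower. For Wnt these counts were 13 and 4 of 21, and for Hippo 14 and 4 of 20. For FGF and ERK they were 6 and 11 of 19. Across all genes, 36.4% were higher and 36.6% lower. In the Nodal and TGF-beta list of 20 measured genes, Lefty1 and Tgfbr2 rose as given above. Ltbp1, which anchors latent TGF-beta in the matrix, fell from 38.3, 34.3 and 34.6 CPM in wild-type to 7.18, 6.84 and 6.51 CPM in Dgcr8 KO, a log2 change of -2.36 with SE 0.133 (limma adjusted p = 1.95e-17). The ligand Nodal was at 0.37 and its coreceptor Tdgf1 at 0.12, neither of them called. Of 12 measured BMP genes, Id1 and Id3, direct BMP targets that block differentiation factors, were called higher. Id1 was at 2.32, 3.80 and 2.66 CPM in wild-type and 16.6, 18.2 and 18.8 CPM in Dgcr8 KO, a log2 change of 2.59 with SE 0.196 (limma adjusted p = 5.84e-14), and Id3 was at 1.62.

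Of 21 measured Wnt genes, 5 were called higher and 0 lower. Notum, a secreted enzyme that inactivates Wnt proteins, was at 36.8, 36.3 and 34.9 CPM in wild-type and 209.6, 222 and 227 CPM in Dgcr8 KO, a log2 change of 2.61 with SE 0.0641 (limma adjusted p = 8.22e-28). The Wnt target Sp5 was at 2.03, the ligand Wnt11 at 2.39, the transcription factor Tcf7l2 at 1.20 and the receptor Fzd10 at 1.07. Fzd10 lost the call at 0.94 without wild-type replicate 2. The cells of both genotypes were grown with 2i, which holds the Wnt pathway active and the ERK pathway inhibited.

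In the FGF and ERK list of 19 measured genes, Spry4, a feedback inhibitor of the pathway, had 2 reads in wild-type and 113 in Dgcr8 KO, a ratio of 59.4-fold (95% counting interval 16.1 to 497). Its relative Spry1 fell from 9.72, 8.04 and 8.52 CPM in wild-type to 3.76, 3.67 and 3.97 CPM in Dgcr8 KO. The receptor Fgfr2 was at -2.23, the ERK target Etv4 at -1.13 and the ligand Fgf4 at 0.09, the last not called. Of the 3 Sprouty genes measured, Spry4 was thus called higher and Spry1 lower, and Spry2 was lower at -0.86 (limma adjusted p = 5.02e-12), under the limit on size.

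In the Hippo list of 20, the kinase Lats2 rose, and the adaptor Amotl1 and the transcription factor Tead2 fell. Tead2 was at 241, 241 and 257 CPM in wild-type and 101, 93.1 and 109 CPM in Dgcr8 KO, a log2 change of -1.29 with SE 0.0522 (limma adjusted p = 1.48e-21). Lats1 was called at 1.02 but was under 1 without wild-type replicate 2, wild-type replicate 3 or Dgcr8 KO replicate 3, at 0.999, 0.973 and 0.989, and under 2 other scalings. The targets Ccn1 and Ccn2 were at 0.50 and 0.38 and were not called. In the Notch list of 13, the receptor Notch3 fell from 78.6, 64.4 and 83.6 CPM in wild-type to 19, 18.4 and 19.8 CPM in Dgcr8 KO, with Dtx1 at -1.64, whereas the receptor Notch4 and the ligand Jag1 were both at 1.13. In the insulin and IGF list of 18, Igf2 and its neighbour H19 fell at -1.64 and -2.72, Igfbp7 fell at -2.83, and Igfbp3 rose at 1.34. With 3 CPM required in all 6 libraries, 2 of this list were called higher and 0 lower, so these falls rest on the filter.

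Among cell cycle genes, some G1 regulators rose by more than 2-fold, and most genes of replication licensing and mitosis fell by less. Of 17 measured cyclins, kinases and factors of the G1 to S step, 4 were called higher and 1 lower, while at an adjusted p under 0.05 and any size 5 were higher and 9 lower, with a median of -0.11. Ccnd1, a D-type cyclin, was at 109, 106 and 102 CPM in wild-type and 319.8, 343 and 327 CPM in Dgcr8 KO, a log2 change of 1.64 with SE 0.0469 (limma adjusted p = 6.48e-26). Ccnd2, another D-type cyclin, was at 0.145, 0.223 and 0.426 CPM in wild-type and 8.73, 9.37 and 9.21 CPM in Dgcr8 KO, a log2 change of 4.89 with SE 0.347 (limma adjusted p = 1.02e-14), while the third, Ccnd3, fell at -1.05. The D-type cyclins thus moved apart, with Ccnd2 going from near 0 to a low level. Cdk6, a kinase partner of these cyclins, was at 1.55, whereas its relative Cdk4 was at -0.08. Of 14 measured CDK inhibitors and Rb family genes, Rbl2 was the only one called, with its relatives Rbl1 and Rb1 at 0.73 and 0.52.

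Of 20 measured replication licensing genes, 18 were lower at an adjusted p under 0.05 and 0 higher, beside 36.6% and 36.4% of all genes, but only Gins2 and Mcm5 passed the limit on size. Mcm5, a subunit of the replicative helicase, was at 1040.2, 1014 and 1025 CPM in wild-type and 481, 490.3 and 472 CPM in Dgcr8 KO, a log2 change of -1.09 with SE 0.0320 (limma adjusted p = 1.32e-25). The median of the list was -0.46. Of 24 measured mitosis genes, 22 were lower at an adjusted p under 0.05 and 1 higher, with a median of -0.57, and 3 were called. Cenpa, the centromeric histone H3 variant, was at 139, 145 and 142 CPM in wild-type and 38.7, 42.4 and 43.3 CPM in Dgcr8 KO, and Ccnb1, the mitotic cyclin, and Plk1, a mitotic kinase, were at -1.31 and -1.06.

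The replication-dependent histone genes, whose messages end in a stem-loop and rise in S phase, were mostly lower. Of 52 measured, 19 were called lower and 0 higher, and 47 were lower at an adjusted p under 0.05, with a median of -0.65. Hist1h1b, a linker histone gene, was at 625, 598 and 668 CPM in wild-type and 187, 193 and 202 CPM in Dgcr8 KO, a log2 change of -1.70 with SE 0.0434 (limma adjusted p = 2.15e-27). The summed level was 11016 to 11399 CPM in wild-type and 7317 to 7555 CPM in Dgcr8 KO. Many of these genes are close copies, so the value of a single gene is less certain than the sum. Of 22 measured p53 targets, the BH3-only gene Pmaip1 and the membrane protein gene Perp rose at 2.24 and 2.17. Gadd45a and Ei24 were at 1.15 and 1.13, and the median of the list was 0.17. At an adjusted p under 0.05 and any size, 12 of the p53 targets were higher and 7 lower. The lower ones included Mdm2, Aen and Bbc3, at -0.92, -0.68 and -0.67, under the limit on size. Among 22 measured apoptosis genes, the initiator caspase gene Casp8 rose at 1.69 and the effector Casp6 fell at -1.13.

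Sterol synthesis was lower at most of its steps. Of 23 measured cholesterol genes, 9 were called lower and 1 higher, and 20 were lower at an adjusted p under 0.05, with a median of -0.91. Msmo1, a sterol oxidase, was at 248, 251 and 241 CPM in wild-type and 74.4, 81.4 and 83.4 CPM in Dgcr8 KO, a log2 change of -1.63 with SE 0.0517 (limma adjusted p = 1.20e-24). Insig1, which retains the sterol sensor in the endoplasmic reticulum, was at 179.7, 186 and 178 CPM in wild-type and 72.7, 70.9 and 75.3 CPM in Dgcr8 KO. Mvd, of the mevalonate steps, and Dhcr7, of the last steps, were at -1.51 and -1.5, and the only member called higher was Ebp, a sterol isomerase, at 1.23. Scd1, the fatty acid desaturase, which was not on the list but among the largest falls, was at 256, 239.8 and 260.0 CPM in wild-type and 47.3, 47 and 56.5 CPM in Dgcr8 KO, a log2 change of -2.34 with SE 0.0628 (limma adjusted p = 1.12e-26).

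Genes of amino acid supply fell in part. Of 20 measured serine and one-carbon genes, 5 were called lower and 1 higher, with a median of -0.48. Psat1, of serine synthesis, was at 529.6, 527 and 492 CPM in wild-type and 205, 215 and 211 CPM in Dgcr8 KO, a log2 change of -1.29 with SE 0.0406 (limma adjusted p = 9.95e-25). Phgdh, the first enzyme of that pathway, and Mthfd2, of the mitochondrial folate cycle, were at -1.47 and -1.35, and Aldh1l2, of the same cycle, rose at 1.5. Of 22 measured ATF4 and unfolded protein response genes, 4 were called lower and 0 higher (1 without wild-type replicate 2). Those lower were Slc7a5, an importer of large neutral amino acids, at 276, 258 and 262 CPM in wild-type and 85.2, 90.9 and 85.3 CPM in Dgcr8 KO, Chac1 and Trib3 at -2.65 and -1.76, and Atf4 itself at -1.05, which lost the call at -0.995 without wild-type replicate 2. Of 24 measured glycolysis genes, Pdk1, which limits pyruvate entry into mitochondria, rose at 1.72, and Ldhb and Bpgm fell at -1.53 and -1.20, as did Eno2 at -1.16, which was under the limit without wild-type replicate 3 or Dgcr8 KO replicate 3, at -0.97 and -0.96.

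Large sets of housekeeping genes shifted by less than 2-fold. Of 78 measured cytosolic ribosomal protein genes, 64 were lower and 3 higher at an adjusted p under 0.05, with a median of -0.31. Of 84 measured nuclear genes of oxidative phosphorylation, 56 were lower and 10 higher, with a median of -0.31, and Cox7b, Ndufc1 and Uqcrq were called lower. The 7 measured messages of the mitochondrial genome moved the other way, with 6 higher at an adjusted p under 0.05, a median of 0.34 and none past the limit on size. mt-Co1, a subunit of complex IV, was at 4329, 4467 and 4126 CPM in wild-type and 5927, 5931 and 5785 CPM in Dgcr8 KO, a log2 change of 0.45 with SE 0.0232 (limma adjusted p = 1.36e-18). Of 53 measured translation initiation genes, 33 were lower and 6 higher, and Eif4ebp1, which encodes the inhibitor 4E-BP1, fell from 391, 378 and 389.8 CPM in wild-type to 149.5, 157 and 140.5 CPM in Dgcr8 KO. These values are shares of each library, and no absolute scale could be had from the spike-in rows, which held 1 read.

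Lysosomal genes included 5 called higher and 1 lower of 26 measured, the lower count going to 0 without Dgcr8 KO replicate 2 and to 2 without wild-type replicate 2. Lamp2, a major protein of the lysosomal membrane, was at 103, 109 and 109 CPM in wild-type and 503, 481 and 487 CPM in Dgcr8 KO, a log2 change of 2.19 with SE 0.0445 (limma adjusted p = 4.80e-30). The protective protein Ctsa was at 1.78. In the NRF2 and glutathione list of 20, the heme oxygenase Hmox1 fell at -1.70 and the glutathione S-transferase Gstm2 rose at 1.18. Gpx3, a secreted glutathione peroxidase, had 135 reads in wild-type and 3 in Dgcr8 KO, a ratio of 42.8-fold (95% counting interval 14.3 to 210.1) in favour of wild-type.

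**Figure D5:**
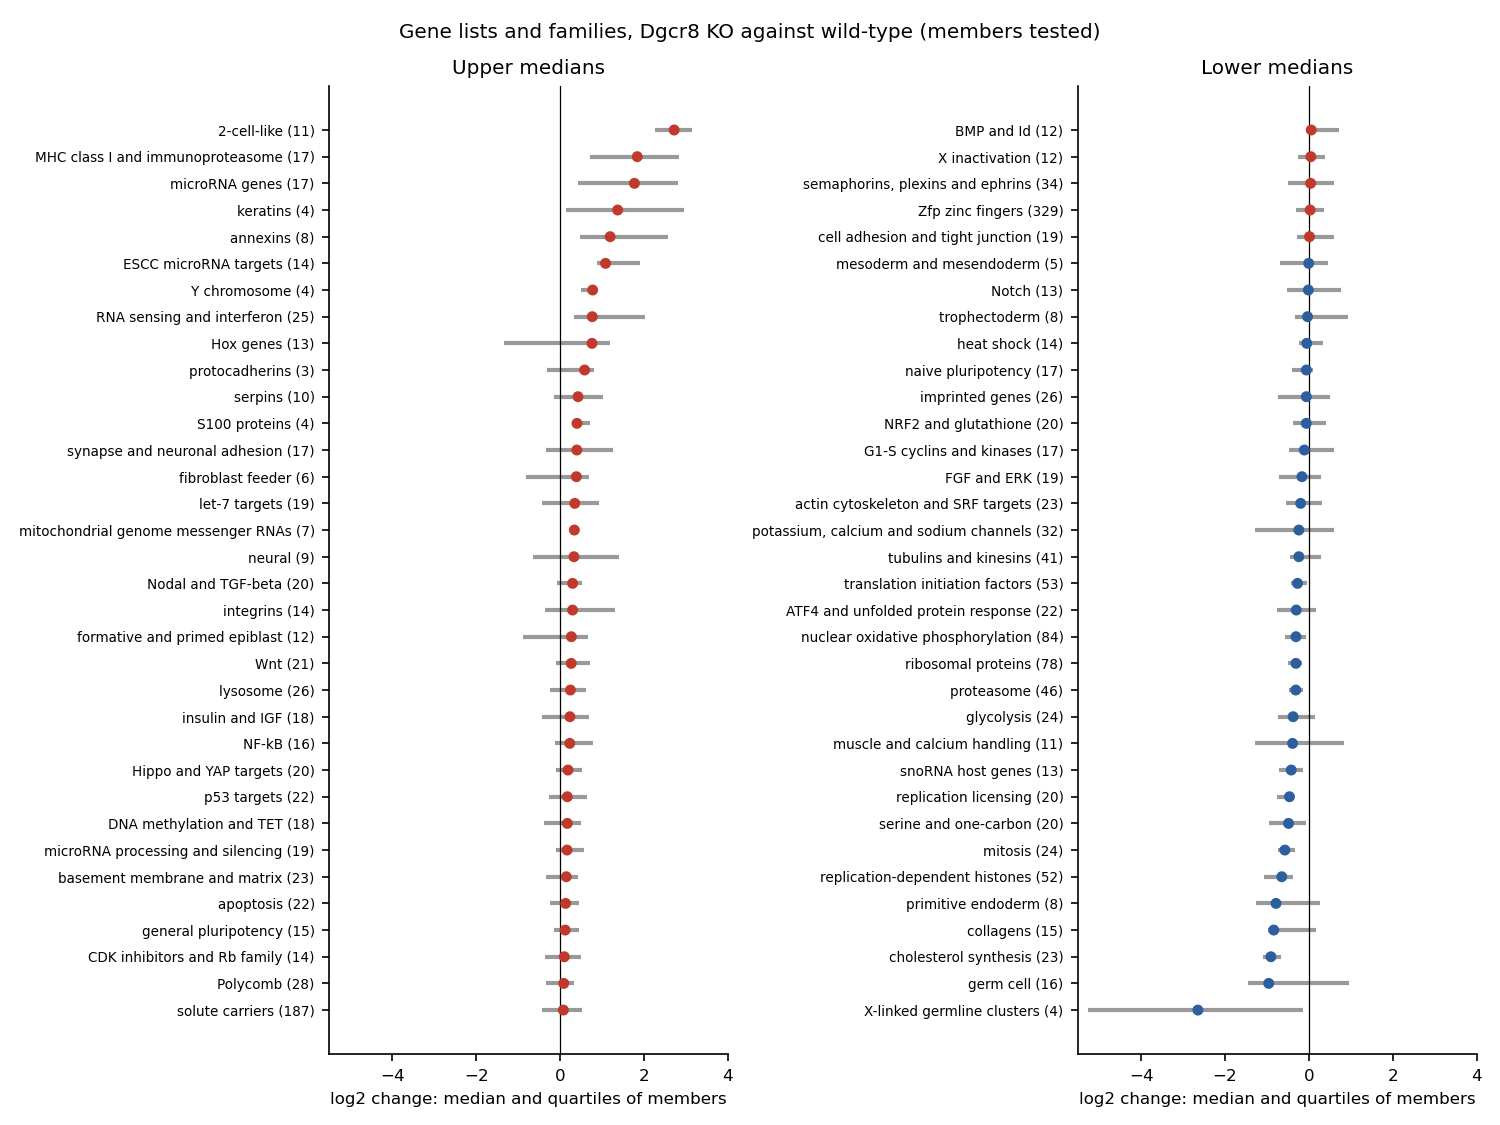
Points are the median log2 change, Dgcr8 KO against wild-type, of the tested members of each list or family (number tested in brackets) and bars run from the lower to the upper quartile of the members; red medians are above and blue below 0. The 2-cell-like list has the highest median at 2.72 and the X-linked germline genes the lowest at -2.65, and 6 medians near 0 change sign with the scaling, as do those of a few small lists with the filter.

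Families of the membrane and the cytoskeleton contained some of the largest changes. Among the annexins, proteins that bind membranes in the presence of calcium, 4 of 8 measured were called higher and 1 lower. With 3 CPM required in all 6 libraries, 2 were called higher and 1 lower. Anxa3 passed the main filter only through the Dgcr8 KO libraries and could hardly come out otherwise than higher. Anxa3 was at 0.580, 0.335 and 0.639 CPM in wild-type and 64.2, 60.4 and 60.6 CPM in Dgcr8 KO, a log2 change of 6.79 with SE 0.323 (limma adjusted p = 1.54e-19). Anxa2 was at 16.5, 18.1 and 12.6 CPM in wild-type and 243, 296 and 283 CPM in Dgcr8 KO, a log2 change of 4.13 with SE 0.113 (limma adjusted p = 1.60e-26). Anxa6 was at 123, 131 and 138 CPM in wild-type and 12.7, 13.9 and 15.9 CPM in Dgcr8 KO, a log2 change of -3.22 with SE 0.0986 (limma adjusted p = 4.59e-25). Per kilobase of exon, Anxa6 was at 52.5 RPKM in wild-type and 5.69 RPKM in Dgcr8 KO, and Anxa2 at 10.9 RPKM in wild-type and 189 RPKM in Dgcr8 KO (means of 3 libraries), so the order of the levels of these 2 annexins turned over.

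Of 14 measured integrin genes, receptors for extracellular matrix, 6 were called higher and 0 lower. Itgav, the alpha V chain, was at 198, 188 and 188 CPM in wild-type and 743, 687 and 726 CPM in Dgcr8 KO, a log2 change of 1.91 with SE 0.0402 (limma adjusted p = 1.17e-29). Its partner Itgb5, the fibronectin receptor chain Itga5 and the laminin receptor chain Itgb4 were at 1.38, 1.58 and 2.39, and Itga6 and Itgb1, other laminin receptor chains, were at 0.13 and 0.46 and not called. In the matrix list the laminin chains moved apart. Lama5 was at 504, 460.1 and 507 CPM in wild-type and 1335, 1333 and 1263 CPM in Dgcr8 KO. Lama1 was at 100.2, 85.1 and 98.1 CPM in wild-type and 33.9, 41.7 and 34 CPM in Dgcr8 KO. Lamb2 rose at 1.17 where Lamb1 fell, and Lamc1 was at 0.48.

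Of 4 measured keratin genes, 2 were called higher and 0 lower. Vim, which encodes the intermediate filament protein vimentin, was at 98.5, 94.9 and 111 CPM in wild-type and 469.9, 463 and 490.0 CPM in Dgcr8 KO, a log2 change of 2.22 with SE 0.0493 (limma adjusted p = 4.32e-29). The keratin gene Krt17 was at 4.21, 2.68 and 3.30 CPM in wild-type and 52.9, 60.8 and 54.5 CPM in Dgcr8 KO. The nuclear lamin gene Lmna was at 1.30. Epithelial junction genes showed no common direction, with E-cadherin (Cdh1) at 0.48, Epcam at -0.09 and the claudin gene Cldn6 at -2.13. Of 23 measured genes of the actin cytoskeleton, 2 were called higher and 3 lower, among them the myosin light chain gene Myl9 and the filamin gene Flnc, at -3.31 and -1.59.

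The direction of ion channel genes depended on the filter for low counts. Of 32 measured potassium, calcium and sodium channel genes, 13 were called lower and 4 higher, beside 6.15% and 10% of all genes. Cacng6 and Cacng7, of calcium channels, were at -2.07 and -1.91. Most of these were low, and requiring 3 CPM in all 6 libraries left 3 called lower and 2 higher. The median of the family was -0.24, and turned to 0.09 with that filter and to 0.07 with no filter beyond 1 count. Among genes of calcium handling, Casq2, the calsequestrin of the sarcoplasmic reticulum, had 3 reads in wild-type and 585 in Dgcr8 KO, a ratio of 205-fold (95% counting interval 69.8 to 997), and the ryanodine receptor gene Ryr3 fell at -3.15. Among synaptic adhesion genes, Tenm2 had no wild-type read and 192 reads in Dgcr8 KO and was at least 22.1-fold higher against a floor of 3 reads per library, Tenm1 was at 3.81, and Cntnap2 fell at -4.26.

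Of 187 measured solute carriers, 23 were called higher and 19 lower, and of 329 zinc finger genes named Zfp, 14 were called in each direction. Slc38a4, an amino acid transporter, was at 385, 387 and 382 CPM in wild-type and 65.5, 60.9 and 66.8 CPM in Dgcr8 KO, a log2 change of -2.58 with SE 0.0515 (limma adjusted p = 3.30e-30). Semaphorins, plexins and ephrins had 4 of 34 called higher and 7 lower, led by Sema6a at 2.67. With 3 CPM required in all 6 libraries, 4 of them were called higher and 2 lower, so the excess of falls rests on the filter. For the solute carriers that filter left 17 called higher and 8 lower.

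Chromatin and imprinted genes changed in single members. Of 28 measured Polycomb genes, Ezh1, a methyltransferase of PRC2, was the only gene called, at 39.5, 39.96 and 44.2 CPM in wild-type and 109.6, 98.9 and 105 CPM in Dgcr8 KO, while other genes of that complex, Suz12 and Mtf2, were at -0.27 and -0.61. Of 18 measured DNA methylation genes, the methyl-CpG readers Mbd2 and Zbtb38 rose at 1.28 and 1.30, and the glycosylase Tdg fell at -1.36. Uhrf1, which brings DNMT1 to replicated DNA, fell at -1.06 and lost the call at -0.99 without wild-type replicate 3, and Dnmt1 itself was at 0.22. Of 26 measured imprinted genes, 3 were called higher and 5 lower, among them Mirg in the first and Usp29, H19, Igf2 and Plagl1 in the second. With upper-quartile or library size scaling, 1 was called higher. Requiring 3 CPM in all 6 libraries left 3 called higher and 1 lower, and the median went from -0.06 to 0.03. The count of 5 lower therefore rests largely on the filter, through genes that are near 0 in Dgcr8 KO. Usp29 was at 11, 8.82 and 9.80 CPM in wild-type and 0.884, 0.633 and 0.425 CPM in Dgcr8 KO, a log2 change of -3.81 with SE 0.329 (limma adjusted p = 1.62e-12).

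Hox genes moved in both directions. Of 13 measured Hox genes, 5 were called higher and 4 lower, and the 3 Hoxc genes measured, Hoxc4, Hoxc12 and Hoxc13, were all lower, at -2.0, -1.83 and -2.26. Hoxa9 was at 1.31, 0.670 and 0.746 CPM in wild-type and 11.7, 11.7 and 13.7 CPM in Dgcr8 KO, a log2 change of 3.77 with SE 0.294 (limma adjusted p = 1.19e-13), and Hoxa10 was at 1.69. Most Hox genes lay near 0 in 1 genotype, and 1 was called higher and 0 lower when 3 CPM was required in all 6 libraries. Halr1, a long noncoding RNA (lncRNA) at the start of the Hoxa cluster, was at 6.82, 6.70 and 4.90 CPM in wild-type and 38.8, 33.9 and 33.6 CPM in Dgcr8 KO, the largest rise of an abundant lncRNA, with a log2 change of 2.56 with SE 0.146 (limma adjusted p = 2.54e-17). Of 26 X-linked germline genes listed, 4 passed the filter, with 2 called lower and 0 higher. The 2 called passed it only through the wild-type libraries and could hardly come out otherwise than lower. Mageb16 and Pramef12 were at -0.29 and 0.31 and were not called. The median was -2.65, and it was 0.007 when 3 CPM was required in all 6 libraries. Xlr3a had 156 reads in wild-type and 1 in Dgcr8 KO, a ratio of 148-fold (95% counting interval 26.2 to 5897) in favour of wild-type, and has close copies. Rhox5, a homeobox gene of the reproductive cluster, was at 10.6, 10.6 and 13.1 CPM in wild-type and 0.442, 0.380 and 0.142 CPM in Dgcr8 KO, a log2 change of -5.0 with SE 0.358 (limma adjusted p = 1.28e-14).

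The remaining large changes among abundant genes, those with a mean of at least 30 CPM, were not concentrated in a single list. Cd109, a membrane protein that binds TGF-beta, was at 5.80, 8.59 and 7.03 CPM in wild-type and 142, 144 and 130.3 CPM in Dgcr8 KO, a log2 change of 4.27 with SE 0.131 (limma adjusted p = 4.59e-25). Nt5e, the ecto-enzyme CD73 that forms adenosine, was at 3.48, 3.57 and 3.62 CPM in wild-type and 66.2, 68.8 and 70.7 CPM in Dgcr8 KO. Adam23, a membrane protein related to metalloproteases, was at 16, 14.7 and 13.7 CPM in wild-type and 222, 217 and 231 CPM in Dgcr8 KO. In these 3 every Dgcr8 KO library was more than 10 times the highest wild-type library. Atxn1, a transcriptional corepressor, and Smyd1, a muscle methyltransferase, rose by 3.54 and 3.48.

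Among the falls, Upp1, the uridine phosphorylase that breaks uridine down, was at 401, 415 and 419.8 CPM in wild-type and 70.3, 80.1 and 80.2 CPM in Dgcr8 KO, a log2 change of -2.43 with SE 0.0518 (limma adjusted p = 1.58e-29). B3gnt5, a glycosyltransferase of glycolipids, was at 96.8, 97.6 and 85.7 CPM in wild-type and 12.7, 9.63 and 10.1 CPM in Dgcr8 KO. Tex15, a germline gene, was at 71.1, 77.2 and 61.8 CPM in wild-type and 9.83, 10.6 and 10.8 CPM in Dgcr8 KO. The wild-type libraries were several fold above Dgcr8 KO in each. Pgap1, which remodels GPI anchors, Fblim1, an adhesion protein, and Ildr1, a protein of tricellular junctions, had log2 changes of -2.35, -2.54 and -2.35. The abundant lncRNAs with the largest falls were Platr14, Lncenc1 and Gm42047. Lncenc1, which is abundant in naive ESCs, was at 374, 357 and 354 CPM in wild-type and 104, 96.8 and 97.6 CPM in Dgcr8 KO, a log2 change of -1.86 with SE 0.0473 (limma adjusted p = 2.15e-27), and Platr14 and Gm42047 were at -2.05 and -1.48.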

How the data were processed

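Values were the read counts per gene deposited by the authors, whole numbers that were not normalized. Per the file headers and the methods, the authors trimmed reads with Cutadapt 1.14, mapped them uniquely with STAR 2.5.3a to mm10, and counted them with featureCounts 1.5.3 at strand setting 2 (reverse stranded) against GENCODE M14 without ribosomal RNA genes. Tool versions are from the submitters' processing notes. No molecular identifiers were used, so intervals and floors cover counting error only.

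Groups were read from the sample titles. Genes with at least 3 CPM in at least 3 of the 6 total libraries were kept, and limma 3.58.1 (R 4.3.3) was run on voom weights after TMM scaling by edgeR 4.0.16, with genotype as the only term. The 4sU libraries did not enter this fit. Calls required a p under 0.05 after Benjamini-Hochberg adjustment over all 11854 genes and a log2 change beyond 1 in either direction. Calls by the edgeR quasi-likelihood test are given beside them. Where a group had no read, a floor of 3 reads per library gave a lower bound, and where it had 1 to 3 in all, the ratio is given with an exact 95% counting interval.

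Of the 51467 gene rows, 51274 took their symbols and biotypes from GENCODE M21 by stable identifier. The members of the 47 lists and 21 families were chosen with earlier results of these data known, and 2 family patterns that took in unrelated symbols were corrected after values were seen. Genes were chosen by rule: Dgcr8, up to 4 called members per list with the largest changes and libraries that do not overlap, the 2 most abundant members where fewer than 2 were called, and the 10 largest rises and falls of protein-coding genes over 30 CPM and 3 of lncRNAs over 10 CPM. Other list members were named after their values were seen, to show how members compare. Alternatives were DESeq2 1.42.0, limma-trend, other scalings and filters, no limit on size, a 12-library fit, a replicate block, and leaving out each library. Some genes, lists and families are not reported here. The scripts were tested on simulated counts.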

Additional observations from a re-analysis of the deposited data

How the results depend on the processing

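The number of calls depended mostly on the filter and on the limit on size. Beside the 1916 calls reported (1187 higher, 729 lower), 4125 were made with no filter beyond 1 count (2416 higher and 1709 lower of 27205 genes), 1190 when 3 CPM was required in all 6 libraries (801 higher and 389 lower), and 8646 with no limit on size (4311 higher and 4335 lower). The stricter filter takes away genes near 0 in either genotype by its construction. Under it, the Wnt genes called higher went from 5 to 3 and the keratins called higher from 2 to 1. Collagens called lower went from 3 to 1, and naive genes called lower from 2 to 1. The other alternatives gave 1870 to 1921 calls, of which 56.7% (the fit of 12 libraries, with a median change of all genes of -0.09) to 62.6% (DESeq2) were higher. Leaving out a library gave 1906 to 1939 calls, 1189 to 1210 higher and 717 to 731 lower. Dgcr8 itself ranged from -1.59 to -1.44 with a library left out and was called in every alternative.

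The replicate numbers did not pair the libraries: deviations from the group means of same-numbered libraries correlated at 0.00428, -0.0183 and 0.0407, and not every library correlated best with its own number. With the number as a block, 1906 genes were called, 1184 higher and 722 lower, and Dgcr8 was at -1.52.

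Of 279 genes followed through the alternatives, 262 stayed on the same side of the limits wherever they were tested. None changed sign where tested. The other genes lay near a log2 change of 1, and calls lost by genes still tested had an absolute change between 0.90 and 1.00. A gene removed by the stricter filter gave no value under it and was not counted as changed, so its call was not tested there. Of 68 list medians, 16 took the opposite sign in at least 1 alternative, and 6 of these did so between scalings: mesoderm, BMP and Id, adhesion, X inactivation, Zfp genes, and semaphorins, plexins and ephrins. No direction is drawn for these. Depth limits genes of a few reads, whose ratios carry wide intervals.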

Other observations

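Chromosomes were compared as a check of the lines, after values were seen. Chromosome 8 had the lowest median of the autosomes, -0.18 over 668 tested genes, beside -0.01 over all genes. On it, 328 genes were lower and 195 higher at an adjusted p under 0.05, and 10.9% were called lower, beside 6.15% of all genes. The medians of the other autosomes lay between -0.06 and 0.10. Genes of chromosome 8 described above include Irf2, Rbl2 and Klf2, which rose, and Msmo1, Mvd, Gins2, Mcm5, Slc7a5 and Tubb3, which fell. Whether the copy number of chromosome 8 differed between the lines was not tested.

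The 4 measured genes of the Y chromosome list were present in every library of both genotypes. Their summed level was 140.2 to 155 CPM in wild-type and 218 to 234 CPM in Dgcr8 KO, and 3 were higher in Dgcr8 KO at an adjusted p under 0.05, none past the limit on size. Ddx3y, an RNA helicase gene, was at 103, 101 and 92.4 CPM in wild-type and 153, 154 and 162 CPM in Dgcr8 KO, a log2 change of 0.67 with SE 0.0519 (limma adjusted p = 1.01e-13), and its X-linked relative Ddx3x was at 0.50. Usp9x, an X-linked deubiquitinase gene, was at 0.64.

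Of 13 measured host genes of small nucleolar RNAs, 2 were called lower and 0 higher, with a median of -0.42. Of 15 measured collagen genes, 2 were called higher and 3 lower, and the lower count went to 5 without Dgcr8 KO replicate 1. Col2a1, the fibrillar collagen of cartilage, was at 7.83, 6.59 and 6.92 CPM in wild-type and 32.4, 34.1 and 30.3 CPM in Dgcr8 KO, a log2 change of 2.19 with SE 0.131 (limma adjusted p = 9.59e-17), while the median of the collagens was -0.84. Among kinesins and tubulins, Kif26b, a kinesin-related gene, rose from 1.16, 1.00 and 1.28 CPM in wild-type to 11.5, 13.9 and 12.7 CPM in Dgcr8 KO, a log2 change of 3.40 with SE 0.264 (limma adjusted p = 1.12e-13). Of 10 measured serpins, Serpini1, a neuronal protease inhibitor, rose at 1.73. Of 14 measured heat shock genes 1 was called higher and 0 lower, of 4 S100 genes 1 was higher and 0 lower, and of 3 protocadherins 1 was called in each direction, beside 10% higher and 6.15% lower of all genes. Among zinc finger genes, Zfp827 rose from 27.4, 31 and 28.7 CPM to 82.1, 89.2 and 86.1 CPM.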
